A study of Mus musculus with 12 samples.

Results

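The genes described are 10 genes of serine synthesis, mitochondrial folate metabolism, proline synthesis and amino acid import, taken as the rows whose Ensembl identifier carries one of the 10 symbols. All 10 were found among the 27742 genes of the AML12 table and among the 29092 genes of the iWAT table. AML12 is a mouse hepatocyte line, and iWAT is labelled as a line of mouse white adipocytes. In each line 3 RNA sequencing libraries came from confluent cells exposed for 48 h to 50 µM of the plasticizer diethyl phthalate (DEP), and 3 came from DMSO controls. The titles name DMSO, whereas the treatment field names only the medium, DMEM/F12 for AML12 and DMEM for iWAT, with or without DEP. Levels are FPKM, which divide reads by gene length and library size, so they can be set against each other between genes.

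Cells make serine from the glycolytic intermediate phosphoglycerate in 3 enzyme steps, and mitochondria pass its side-chain carbon to tetrahydrofolate, which carries single carbons to purine and thymidylate synthesis. Proline is made from glutamate in the mitochondrion, and large neutral amino acids such as leucine enter through a heterodimer of a light and a heavy chain. Many of these genes are known targets of ATF4, the transcription factor of the integrated stress response, which acts when amino acids are short or the endoplasmic reticulum is stressed. The liver is a main site of serine, folate and amino acid metabolism.

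In AML12 the genes did not move as a block. Phgdh, Psat1 and Shmt2 were higher with DEP, and Mthfd2, Aldh1l2, Aldh18a1, Pycr1, Slc7a5 and Slc3a2 were lower, while Psph did not pass the test. So 9 of the 10 passed an adjusted p below 0.05 (limma on log2(FPKM + 1), Benjamini-Hochberg over all genes tested), 3 higher and 6 lower. Over all 12929 AML12 genes tested 39.2% passed, 23.9% higher and 15.3% lower, a split that became 2357 genes higher and 2545 lower in place of 3092 and 1982 when libraries were centred on their medians. In iWAT only Slc7a5 and Slc3a2 passed, both higher, against a background of 8.54% of 13482 genes, 4.03% higher and 4.52% lower. The change with DEP differed between the lines for 8 of the 10 genes, against 29.2% of 14651 genes. The DEP and DMSO libraries did not overlap for 9 of the 10 genes in AML12, where 52.0% of genes tested did not, 31.6% with DEP above and 20.4% with DEP below. In iWAT they did not overlap for 5, Phgdh, Shmt2, Mthfd2, Slc7a5 and Slc3a2, all with DEP above, where 31.1% of genes did not, 17.2% above and 14.0% below.

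Promoters of 4 of the genes are shown because Phgdh moved against the other 3 in AML12 and because 3 of the 4 hold one of the short motifs that were searched. Each runs from 250 bases before to 50 bases after the annotated start of the gene, on the minus strand, and comes from RefSeq on GRCm38.p6. The windows are chr3:98339920-98340219 for Phgdh, chr19:40588414-40588713 for Aldh18a1, chr11:120643699-120643998 for Pycr1 and chr19:8713848-8714147 for Slc3a2. Capitals mark the motif matches.
Phgdh: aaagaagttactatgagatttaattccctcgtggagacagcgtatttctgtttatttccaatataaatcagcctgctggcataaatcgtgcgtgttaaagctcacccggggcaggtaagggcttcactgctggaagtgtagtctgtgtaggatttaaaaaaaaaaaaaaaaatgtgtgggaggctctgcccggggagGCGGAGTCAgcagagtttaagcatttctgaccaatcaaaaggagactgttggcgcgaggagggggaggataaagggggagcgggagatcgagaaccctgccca
Aldh18a1: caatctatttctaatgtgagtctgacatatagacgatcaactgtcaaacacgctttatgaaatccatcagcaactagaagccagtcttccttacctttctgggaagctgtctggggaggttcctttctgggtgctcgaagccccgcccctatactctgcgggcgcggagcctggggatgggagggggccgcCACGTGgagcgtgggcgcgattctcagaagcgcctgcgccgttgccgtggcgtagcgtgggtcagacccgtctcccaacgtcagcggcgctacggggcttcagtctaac
Pycr1: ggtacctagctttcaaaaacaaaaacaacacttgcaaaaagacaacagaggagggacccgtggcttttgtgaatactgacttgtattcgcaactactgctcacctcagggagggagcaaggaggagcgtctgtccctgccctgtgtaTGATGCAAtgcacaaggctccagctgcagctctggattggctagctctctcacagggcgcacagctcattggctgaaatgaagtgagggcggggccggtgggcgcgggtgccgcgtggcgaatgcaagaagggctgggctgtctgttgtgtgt
Slc3a2: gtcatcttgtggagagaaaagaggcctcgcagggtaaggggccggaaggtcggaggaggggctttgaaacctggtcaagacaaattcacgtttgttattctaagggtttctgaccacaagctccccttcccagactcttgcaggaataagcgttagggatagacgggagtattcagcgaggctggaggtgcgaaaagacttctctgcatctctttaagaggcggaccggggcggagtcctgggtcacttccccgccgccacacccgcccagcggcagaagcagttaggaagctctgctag

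Windows were found for 8 of the 10 genes, with none for Aldh1l2 and Slc7a5. TGATGNAA, the core of the element bound by dimers of C/EBP and ATF factors, was in 1 of the 8 on either strand, as TGATGCAA in the Pycr1 window at position -103 from the start, and in 3.97% of 32851 promoter windows of the same length. CACGTG, the E-box bound by MYC and related factors, was in 1 of the 8, in the Aldh18a1 window at position -59, and in 7.15% of all windows. TGACNNNGC, the core of the antioxidant response element, was in 2 of the 8, Phgdh and Psph, and in 12.4% of all windows. Both of these matches read on the opposite strand, as GCGGAGTCA at position -53 for Phgdh and GCGACGTCA at position 5 after the start for Psph. The Slc3a2, Psat1, Shmt2 and Mthfd2 windows held none of these letters. These matches are a description of the windows, and no binding was measured.

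**Figure D1:**
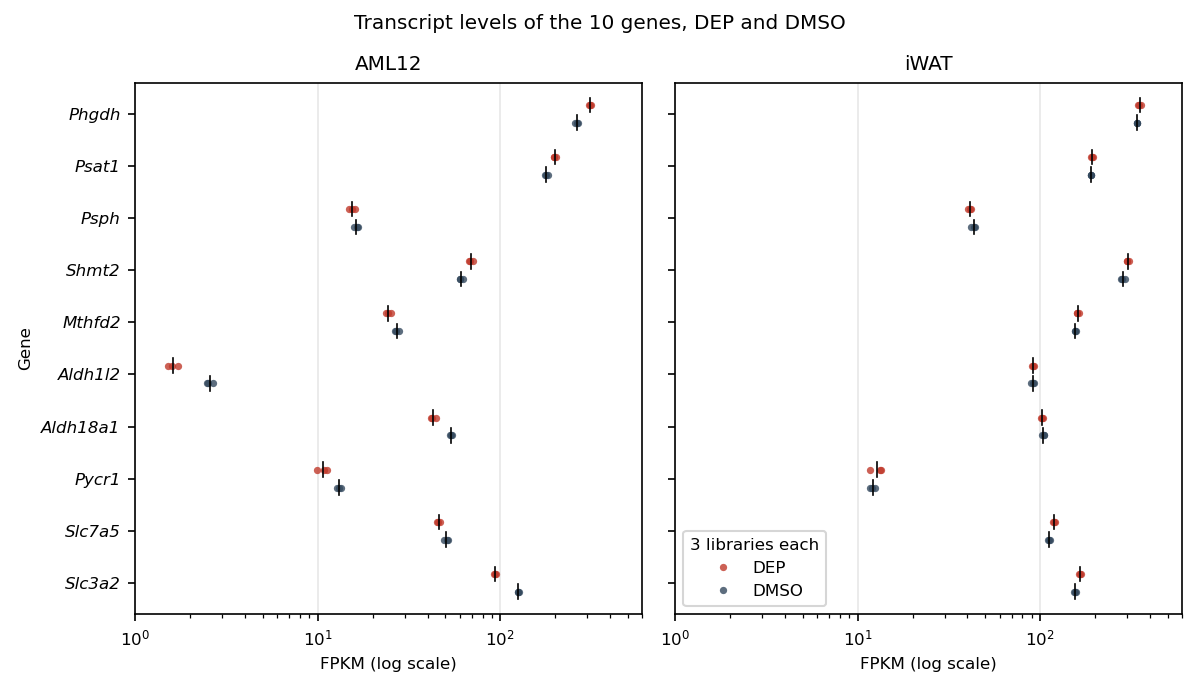
FPKM on a log scale for the 10 genes in AML12 (left) and iWAT (right), with each of 3 DEP and 3 DMSO libraries as a point and group means as bars. In AML12 the levels spanned from 1.60 FPKM for Aldh1l2 to 309.7 FPKM for Phgdh with DEP, and in iWAT Aldh1l2 stood at 91.2 FPKM with DEP.

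Phgdh and Psat1 headed the order of levels in AML12. With DEP the order there was Phgdh, Psat1, Slc3a2, Shmt2, Slc7a5, Aldh18a1, Mthfd2, Psph, Pycr1 and Aldh1l2, and in DMSO libraries it differed only in that Aldh18a1 stood above Slc7a5. No neighbours in either AML12 order overlapped in their ranges over 3 libraries. In iWAT with DEP the order was Phgdh, Shmt2, Psat1, Slc3a2, Mthfd2, Slc7a5, Aldh18a1, Aldh1l2, Psph and Pycr1. Slc3a2 and Mthfd2 overlapped there in both groups, and they changed places in the DMSO libraries.

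The lines differed most in the mitochondrial folate genes. With DEP the AML12 level was 0.0176 of the iWAT level for Aldh1l2, 0.152 for Mthfd2 and 0.228 for Shmt2. For Psph, Slc7a5, Aldh18a1 and Slc3a2 that ratio was 0.374, 0.385, 0.417 and 0.568. For Phgdh, Psat1 and Pycr1 it was 0.881, 1.04 and 0.828. The tables were made separately for each line, so these ratios are a description without a test. Replicates of a group were close, with coefficients of variation of 0.504% to 5.94% in AML12 and 0.0900% to 7.23% in iWAT. The genes had 587 to 45745 reads per library in AML12 and 2269 to 49505 in iWAT.

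Library totals were 49249612 to 52915505 reads with DEP and 42845105 to 46232482 with DMSO in AML12, and 47735539 to 49059544 with DEP and 50035049 to 54585090 with DMSO in iWAT. Depth was thus greater with DEP in AML12 and smaller with DEP in iWAT, and its part in the results was not tested. Beside the marker and proliferation counts below, 23.9% of all AML12 genes tested were higher and 15.3% lower. Over all iWAT genes tested 4.03% were higher and 4.52% lower. In AML12 all 5 hepatocyte markers were higher, with a summed level of 581 to 595 FPKM with DEP and 516 to 527 FPKM with DMSO, and 2 of 3 keratins of simple epithelium were higher, with sums of 4220 to 4253 and 3735 to 3764 FPKM. In iWAT the adipocyte label was not borne out by Adipoq and Plin1, 2 of the 6 mature adipocyte markers. Adipoq averaged 0.0101 FPKM with DEP and 0.0184 with DMSO, and Plin1 0.00585 and 0.00285 FPKM. None of the mature adipocyte markers passed the test there, 2 of the 6 being tested, with sums of 10.4 to 11.01 FPKM with DEP and 10.9 to 11.996 with DMSO. Other genes of that list than Adipoq and Plin1 made up nearly all of these sums. Of 5 preadipocyte and mesenchyme markers 4 were lower in iWAT, with sums of 123 to 128 FPKM with DEP and 166 to 170 with DMSO. In AML12 Ly6a was the 1 of this list that was tested, and it was lower, with sums of 13.2 to 14.2 FPKM with DEP and 18.7 to 20.01 with DMSO. Of 4 leukocyte markers only Cd68 was tested, lower in AML12 at 4.34 against 11.1 FPKM and higher in iWAT at 13.4 against 10.9 FPKM, while Csf1r stayed at or below 0.194 FPKM in every group mean, and no endothelial marker reached the filter. Genes of proliferation also moved in AML12, where 5 of 6 were higher, with Mki67 at 20.9 FPKM with DEP against 12.5 FPKM with DMSO. In iWAT 1 of 6 was higher, Myc, and 2 were lower, Top2a and Ccnb1. Top2a, a topoisomerase of dividing cells, was higher in AML12 (40.9 against 30.6 FPKM) and lower in iWAT (50.8 against 54.8 FPKM). Their part in the results below was not tested, and in such bulk samples fewer cells of a type and less RNA per cell cannot be told apart.

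Serine synthesis showed a rise of its first and second enzymes in AML12. Phgdh oxidises phosphoglycerate in the first and committed step. Its level was 313, 307 and 309 FPKM in AML12 DEP libraries and 267, 263 and 256 FPKM in AML12 DMSO libraries. Every DEP library lay above every DMSO library. The means were 309.7 ± 2.72 and 262 ± 5.44 FPKM (SD, n = 3 each), a log2 fold change of 0.24 ± 0.02 (SE, limma adjusted p = 0.000282), or 18.1% higher.

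Psat1, the aminotransferase that takes its amino group from glutamate in the next step, followed. It had 203, 198 and 198 FPKM in AML12 DEP libraries and 178, 182 and 177 FPKM in AML12 DMSO libraries. The groups did not overlap, and the change was 0.16 ± 0.02 on the log2 scale (limma adjusted p = 0.00125), or 11.7%. In iWAT neither gene passed. Phgdh had 358, 351 and 346 FPKM in iWAT DEP libraries against 340.0, 341 and 340.5 FPKM in iWAT DMSO libraries. The DMSO libraries were almost identical and all below the DEP ones, and the log2 change of 0.05 ± 0.02 did not pass (limma adjusted p = 0.178). Psat1 had 192, 190.1 and 195 FPKM in iWAT DEP libraries against 189.7, 189.5 and 191 FPKM in DMSO libraries. These overlapped, with a log2 change of 0.02 ± 0.02 (limma adjusted p = 0.568).

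Psph, the phosphatase that releases serine in the last step, did not pass in either line. It had 16.1, 15.4 and 14.9 FPKM in AML12 DEP libraries against 16.7, 16.4 and 15.8 FPKM in DMSO libraries, and 42.1, 40.5 and 41.4 FPKM in iWAT DEP libraries against 43.3, 42.0 and 44.2 FPKM in DMSO libraries. The groups overlapped in both lines, with log2 changes of -0.07 ± 0.04 in AML12 (limma adjusted p = 0.177) and -0.06 ± 0.03 in iWAT (limma adjusted p = 0.201). The ratio of Phgdh to Psph was 20.03 ± 0.672 with DEP and 16.1 ± 0.141 with DMSO in AML12, and 8.51 ± 0.165 with DEP and 7.88 ± 0.209 with DMSO in iWAT. That ratio was higher with DEP in every library of both lines and has no test of its own. The exons of Psph share 452 bases with Cct6a on the opposite strand, a chaperonin subunit gene that averaged 97.8 FPKM in AML12 and rose there by 0.18 ± 0.02 (limma adjusted p = 0.000564). Whether reads were counted by strand is not given in the sources used here, so Psph values may hold reads of Cct6a.

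**Figure D2:**
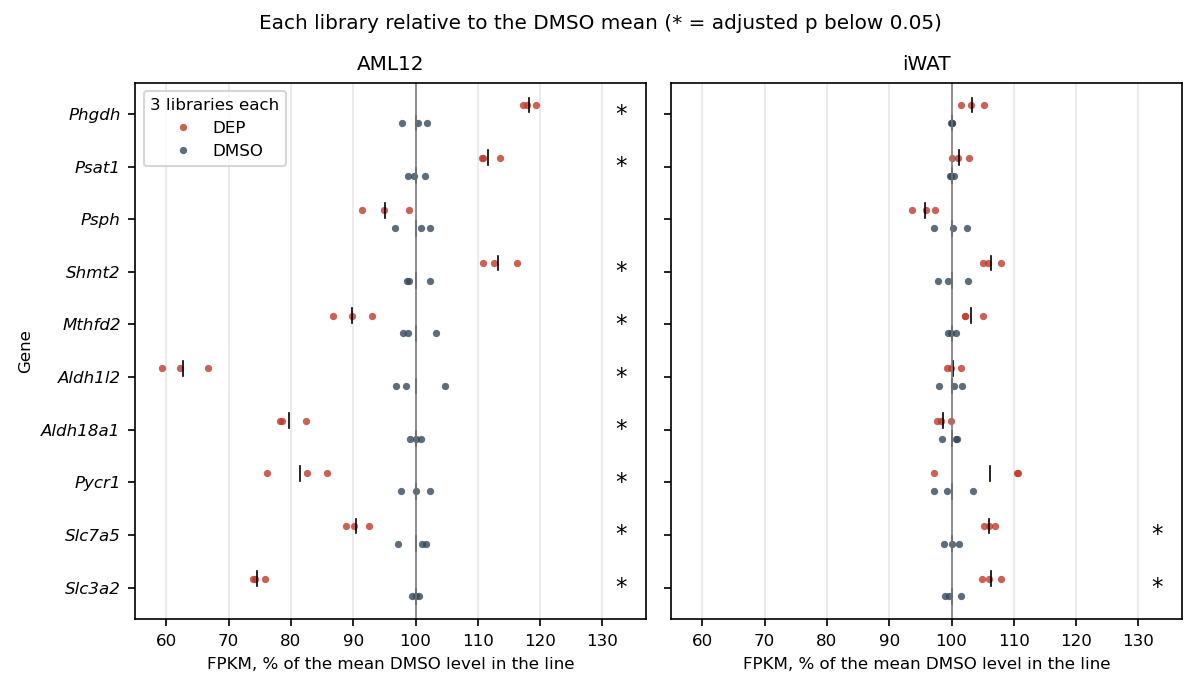
FPKM of each library as a percentage of the mean DMSO level of the line, for the 10 genes in AML12 (left) and iWAT (right). Points are the 3 DEP and 3 DMSO libraries, bars are group means and asterisks mark an adjusted p below 0.05. DEP means ran from 37.3% below to 18.1% above the DMSO mean in AML12 and stayed within 6.28% of it in iWAT.

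The mitochondrial folate enzymes split in AML12, where Shmt2 rose and Mthfd2 and Aldh1l2 fell. Shmt2 moves the side-chain carbon of serine onto tetrahydrofolate and leaves glycine. Its level was 67.4, 70.7 and 68.5 FPKM in AML12 DEP libraries and 60.2, 62.3 and 60.0 FPKM in DMSO libraries. The groups were apart, with a log2 change of 0.18 ± 0.03 (limma adjusted p = 0.00226), or 13.2%. In iWAT Shmt2 had 307, 301 and 298 FPKM with DEP and 292, 282 and 278 FPKM with DMSO. These groups did not overlap either, and the log2 change of 0.09 ± 0.02 missed the threshold (limma adjusted p = 0.0648). It passed in iWAT when all 12 libraries were fitted together (limma adjusted p = 0.0492) and with voom on recovered reads (limma adjusted p = 0.00239).

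Mthfd2, the dehydrogenase and cyclohydrolase that follows Shmt2 in mitochondria, fell in AML12. It had 25.2, 23.5 and 24.4 FPKM with DEP and 26.6, 26.8 and 28.0 FPKM with DMSO. All DEP libraries lay below all DMSO libraries, and the log2 change was -0.15 ± 0.03 (limma adjusted p = 0.0125), or 10.2% lower. In iWAT Mthfd2 had 164, 159 and 159 FPKM with DEP and 156, 155 and 157 FPKM with DMSO. The DEP libraries were all higher there, and the log2 change of 0.04 ± 0.02 did not pass (limma adjusted p = 0.196). The ratio of Shmt2 to Mthfd2 was 2.83 ± 0.167 with DEP and 2.24 ± 0.0930 with DMSO in AML12, and 1.88 ± 0.00897 with DEP and 1.82 ± 0.05001 with DMSO in iWAT.

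Aldh1l2, which oxidises formyl-tetrahydrofolate to carbon dioxide and yields NADPH in mitochondria, was the lowest of the 10 in AML12. It had 1.52, 1.59 and 1.70 FPKM in AML12 DEP libraries, from 587 to 642 reads each, and 2.48, 2.68 and 2.52 FPKM in DMSO libraries, from 809 to 915 reads each. The groups were far apart, with means of 1.60 ± 0.0949 and 2.56 ± 0.106 FPKM (SD, n = 3 each), 37.3% lower. The log2 change was -0.45 ± 0.05 (limma adjusted p = 0.000858), and since the added 1 FPKM damps changes at this level it was -0.64 with 0.1 FPKM added and -0.68 with voom on recovered reads. In iWAT the same gene stood at 91.0, 90.3 and 92.4 FPKM with DEP and 92.5, 91.4 and 89.2 FPKM with DMSO. Those groups overlapped, with a log2 change of 0.00 ± 0.02 (limma adjusted p = 0.936). Aldh1l2 shares 1056 exon bases on the opposite strand with D10Wsu102e, which averaged 0.518 FPKM in AML12 and 0.994 FPKM in iWAT and passed in neither.

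Both genes of the proline branch fell in AML12. Aldh18a1 encodes the synthase that turns glutamate into pyrroline-carboxylate, the shared precursor of proline and ornithine. It had 42.1, 44.3 and 42.0 FPKM in AML12 DEP libraries and 53.7, 53.2 and 54.1 FPKM in DMSO libraries. The DMSO libraries were tightly grouped well above the DEP ones, and the log2 change was -0.32 ± 0.03 (limma adjusted p = 0.000192), or 20.3% lower. In iWAT it had 104, 102 and 102 FPKM with DEP and 105, 105 and 102 FPKM with DMSO. These overlapped, with a log2 change of -0.02 ± 0.02 (limma adjusted p = 0.588).

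Pycr1 encodes a mitochondrial reductase that completes proline. It had 10.8, 9.93 and 11.2 FPKM in AML12 DEP libraries and 12.7, 13.3 and 13.0 FPKM in DMSO libraries. No DEP library reached a DMSO library, and the log2 change was -0.27 ± 0.04 (limma adjusted p = 0.00325), or 18.5% lower. In iWAT it had 13.3, 13.4 and 11.8 FPKM with DEP and 12.002, 12.5 and 11.8 FPKM with DMSO. The last DEP library lay among the DMSO libraries, and the log2 change of 0.08 ± 0.05 did not pass (limma adjusted p = 0.418).

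The transporter pair was the only group of the 10 with calls in opposite directions in the lines. Slc3a2 encodes the heavy chain, which carries several light chains to the cell surface. It had 93.3, 95.3 and 92.8 FPKM in AML12 DEP libraries and 125, 126 and 126 FPKM in DMSO libraries. The groups were separated by far more than their spread, with means of 93.8 ± 1.28 and 126 ± 0.633 FPKM (SD, n = 3 each), a log2 change of -0.42 ± 0.02 (limma adjusted p = 2.08e-05), or 25.4% lower. Slc7a5 encodes the light chain that carries leucine and other large neutral amino acids. It had 45.8, 45.1 and 47.0 FPKM in AML12 DEP libraries and 51.6, 49.4 and 51.3 FPKM in DMSO libraries. The DEP libraries were all lower, with a log2 change of -0.14 ± 0.03 (limma adjusted p = 0.0058), or 9.49% lower.

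In iWAT the pair was higher with DEP. Slc3a2 had 167, 165 and 163 FPKM in iWAT DEP libraries and 155, 154 and 158 FPKM in DMSO libraries. Slc7a5 had 120.3, 118 and 119 FPKM in iWAT DEP libraries and 114, 112 and 111 FPKM in DMSO libraries. Neither gene overlapped between groups, and the log2 changes were 0.09 ± 0.02 for Slc3a2 (limma adjusted p = 0.0372, 6.28% higher) and 0.08 ± 0.02 for Slc7a5 (limma adjusted p = 0.0322, 6.06% higher). Both calls were lost when any 1 of the 6 iWAT libraries was left out. The limma adjusted p was then 0.0651 to 0.123 for Slc3a2 and 0.0583 to 0.104 for Slc7a5. The log2 changes stayed between 0.0765 and 0.0978 for Slc3a2 and between 0.0753 and 0.0931 for Slc7a5.

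The heavy chain fell further than the light chain in AML12. Slc3a2 over Slc7a5 was 2.04 ± 0.0671 with DEP and 2.48 ± 0.0721 with DMSO there (SD, n = 3 each). The highest AML12 DEP ratio, 2.11, lay below the lowest AML12 DMSO ratio, 2.42. In iWAT the ratio was 1.38 ± 0.0142 with DEP and 1.38 ± 0.0331 with DMSO, with overlapping groups, and no test was made of the ratios. Slc7a8, another light chain of the same transport class, was listed at or near 0 in AML12, and in iWAT it averaged 0.811 FPKM with DEP and 0.891 FPKM with DMSO (log2 change -0.06 ± 0.06, limma adjusted p = 0.615).

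**Figure D3:**
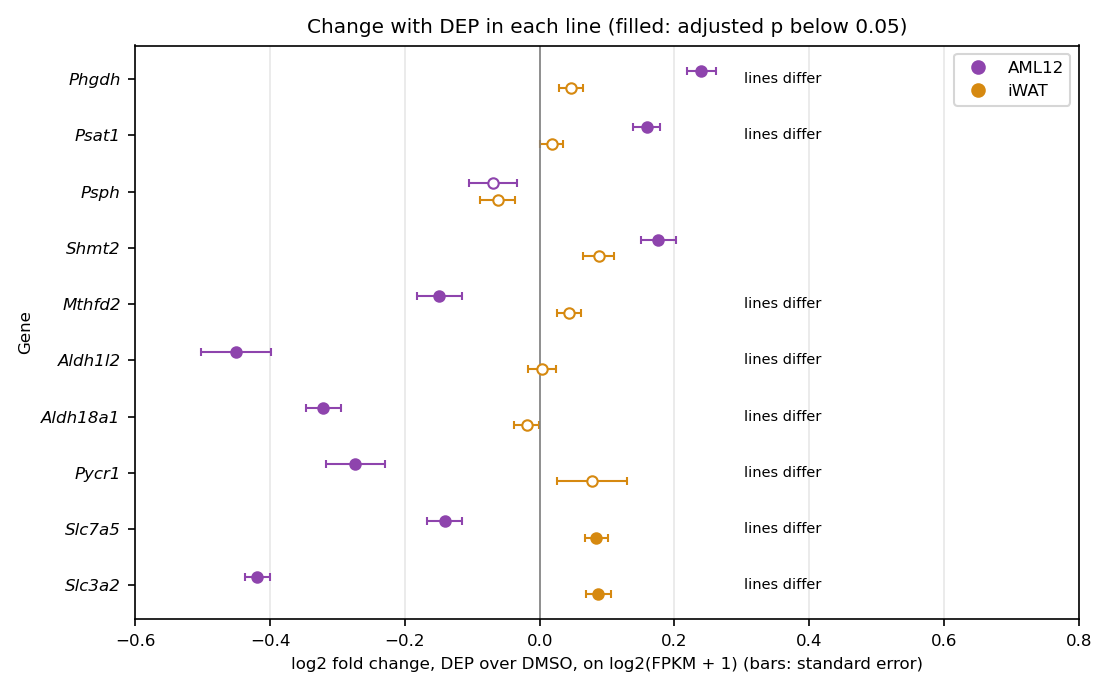
Log2 fold change of DEP over DMSO on the log2(FPKM + 1) scale with standard errors for the 10 genes in AML12 and iWAT, 3 libraries a group, filled where the adjusted p was below 0.05. "Lines differ" marks the 8 genes whose change differed between the lines at an adjusted p below 0.05, the widest gap being -0.51 for Slc3a2.

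The direct test of the difference, the AML12 change minus the iWAT change in 1 limma fit of 12 libraries, was past the threshold for 8 genes. It was positive for 2, Phgdh at 0.19 ± 0.03 (limma adjusted p = 0.00036) and Psat1 at 0.14 ± 0.02 (limma adjusted p = 0.00143), where 17.6% of genes tested passed with a positive difference. It was negative for 6, where 11.7% of genes tested passed with a negative one, and it ran down to -0.51 ± 0.02 for Slc3a2 (limma adjusted p = 2.83e-07) and -0.45 ± 0.04 for Aldh1l2 (limma adjusted p = 3.2e-05). Shmt2 and Psph did not pass, at 0.09 ± 0.03 (limma adjusted p = 0.0823) and -0.01 ± 0.05 (limma adjusted p = 0.929). With libraries centred on their medians the split over all genes was 2032 positive and 2220 negative in place of 2575 and 1708, and that of the 10 genes stayed at 2 and 6. The difference in Shmt2 passed only when the replicate number entered as a block (limma adjusted p = 0.0437). The median log2 change of the 10 genes was -0.145 in AML12, beside 0.032 over all genes tested, and 0.045 in iWAT, beside 0.007 over all genes tested.

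Over the 6 AML12 libraries several of the genes ran closely together or closely against each other. Pearson's r was 0.985 between Phgdh and Psat1, 0.994 between Aldh18a1 and Slc3a2, and -0.989 between Phgdh and Slc3a2. In the 6 iWAT libraries r was 0.928 between Phgdh and Slc3a2 and 0.888 between Slc7a5 and Slc3a2, and -0.542 between Aldh18a1 and Slc3a2. So Phgdh and Slc3a2, which ran against each other in AML12, ran together in iWAT. These libraries share the treatment and the depth that goes with it, and the values are a description. The genes whose profile over 12 libraries was most like the mean profile of the 10, among 6245 candidates, were Rpsa (r = 0.976), a ribosomal protein gene with many near-identical copies that makes its value uncertain, Adamtsl5 (0.969), Lrrc41 (0.968), the alanyl-tRNA synthetase gene Aars1 (0.964) and 2410006H16Rik (0.962). That mean averages genes that ran against each other over the 12 libraries. Among them were Phgdh and Aldh18a1 (r = -0.961) and Psat1 and Slc3a2 (r = -0.919), so it does not stand for each of the 10.

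**Figure D4:**
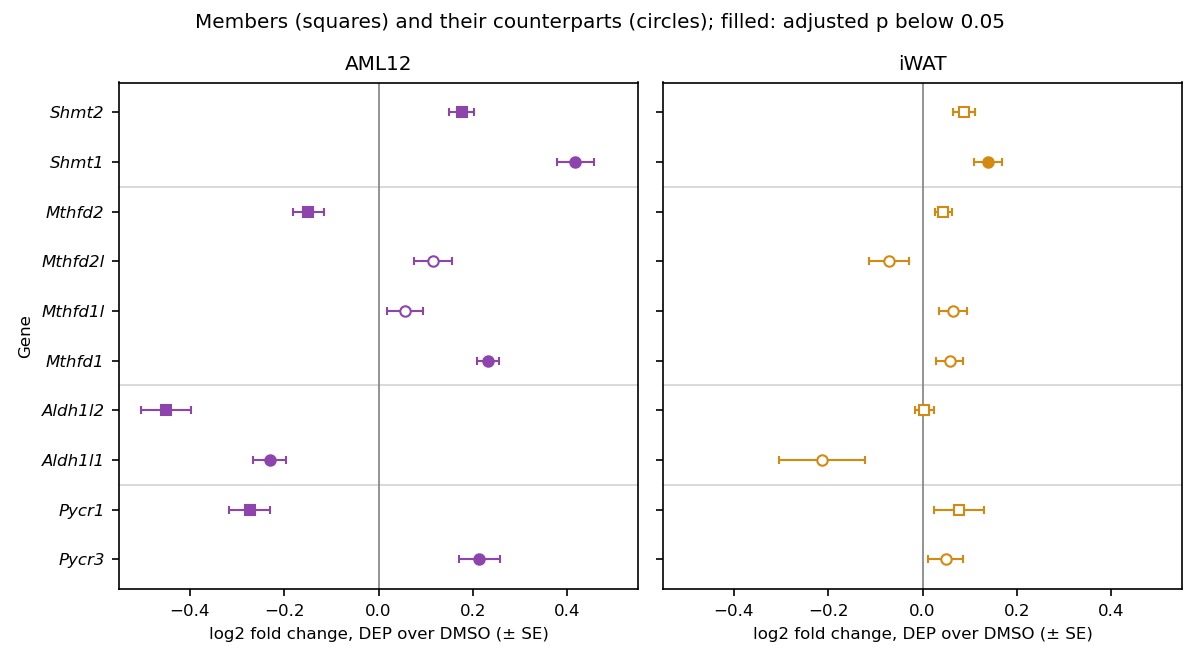
Log2 fold change of DEP over DMSO with standard errors in AML12 (left) and iWAT (right) for Shmt2, Mthfd2, Aldh1l2 and Pycr1 (squares) and their counterparts in the same or another compartment (circles), filled where the adjusted p was below 0.05. In AML12 Pycr1 lay at -0.27 while Pycr3 lay at 0.21.

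Several of these enzymes have close counterparts, and in AML12 some of them moved the other way. Pycr3, the cytosolic counterpart of Pycr1, averaged 40.8 ± 0.710 FPKM with DEP and 35.1 ± 2.18 FPKM with DMSO (0.21 ± 0.04, limma adjusted p = 0.00851). The ratio of Pycr1 to Pycr3 was 0.260 ± 0.0111 with DEP and 0.373 ± 0.0285 with DMSO in AML12, without overlap, and 0.248 ± 0.0140 with DEP and 0.242 ± 0.0176 with DMSO in iWAT, with overlap. No test compared Pycr1 with Pycr3.

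Shmt1, the cytosolic counterpart of Shmt2, rose in both lines. It averaged 19.8 ± 0.696 FPKM with DEP and 14.6 ± 0.629 FPKM with DMSO in AML12 (0.42 ± 0.04, limma adjusted p = 0.000372), and 27.1 ± 0.209 FPKM with DEP and 24.6 ± 0.945 FPKM with DMSO in iWAT (0.14 ± 0.03, limma adjusted p = 0.0375). Mthfd1, the cytosolic enzyme with the combined activities, rose in AML12 to 27.8 FPKM with DEP, against 23.5 FPKM with DMSO (0.23 ± 0.02, limma adjusted p = 0.000428), and had a log2 change of 0.06 ± 0.03 in iWAT (limma adjusted p = 0.265). Around Mthfd2, neither its isozyme Mthfd2l (0.11 ± 0.04 in AML12, limma adjusted p = 0.0615) nor the mitochondrial formate-producing enzyme Mthfd1l (0.06 ± 0.04 in AML12, limma adjusted p = 0.284) passed in either line. Mthfd1l over Mthfd2 was 1.09 ± 0.0329 with DEP and 0.939 ± 0.0468 with DMSO in AML12, and 0.185 ± 0.00405 with DEP and 0.182 ± 0.00717 with DMSO in iWAT. Aldh1l1, the cytosolic counterpart of Aldh1l2, also fell in AML12, at 11.5 FPKM with DEP against 13.7 FPKM with DMSO (-0.23 ± 0.04, limma adjusted p = 0.00278). It was low in iWAT, at 1.16 ± 0.262 FPKM with DEP and 1.49 ± 0.0135 FPKM with DMSO, and did not pass there (limma adjusted p = 0.209). Aldh1l2 over Aldh1l1 was 0.139 ± 0.00815 with DEP and 0.186 ± 0.00417 with DMSO in AML12, and 81.3 ± 16.8 with DEP and 61.1 ± 0.823 with DMSO in iWAT.

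Of the other folate enzymes and carriers, 6 of 17 tested rose and 2 fell in AML12 (6 and 3 with libraries centred on their medians), with a median log2 change of 0.087, and 2 rose and 1 fell in iWAT, with a median of 0.026. For this and the following lists, 23.9% of all AML12 genes tested were higher and 15.3% lower, with a median of 0.032. In iWAT 4.03% were higher and 4.52% lower, with a median of 0.007. No test compared a list with all genes. The largest rise in AML12 was in thymidylate synthase Tyms, at 7.80 FPKM with DEP against 4.12 FPKM with DMSO (0.78 ± 0.04, limma adjusted p = 3.62e-05). Fpgs, which adds glutamates to folate, rose (0.34 ± 0.03, limma adjusted p = 0.000364), and Ggh, which removes them, fell (-0.34 ± 0.05, limma adjusted p = 0.00179). Ggh fell in iWAT as well (-0.28 ± 0.06, limma adjusted p = 0.0288), while the folate carrier Slc19a1 rose there (0.12 ± 0.02, limma adjusted p = 0.0344). In the methionine cycle 4 of 9 genes rose in AML12 and 1 fell, and Ahcy, which splits adenosylhomocysteine, reached 88.0 FPKM with DEP against 76.8 FPKM with DMSO. Cth, the transsulfuration enzyme that yields cysteine, was the 1 that fell, at 32.9 against 42.3 FPKM (-0.36 ± 0.03, limma adjusted p = 0.000193). In iWAT 2 of 8 fell, Mat2a and Ahcyl1, and none rose.

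Of the other proline, ornithine and glutamate enzymes tested in AML12, 6 of 15 rose and 6 fell, or 5 rose and 6 fell with libraries centred on their medians. Oat, which links ornithine to pyrroline-carboxylate, averaged 40.7 FPKM with DEP and 31.3 FPKM with DMSO (0.37 ± 0.03, limma adjusted p = 0.000319). Glul, which makes glutamine, fell to 157 FPKM with DEP, against 216 FPKM with DMSO (-0.47 ± 0.02, limma adjusted p = 2.08e-05). Asns, the asparagine synthetase, averaged 118 ± 1.82 FPKM with DEP and 132 ± 0.946 FPKM with DMSO (-0.16 ± 0.02, limma adjusted p = 0.000973). In iWAT 1 of 16 fell and none rose. That gene was Oat, at 87.1 FPKM with DEP and 94.5 FPKM with DMSO (-0.12 ± 0.02, limma adjusted p = 0.0177), and Asns did not pass at 209 and 201 FPKM (0.06 ± 0.02, limma adjusted p = 0.0981).

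Among 20 other amino acid transporters tested in AML12, 5 rose and 7 fell, with a median log2 change of 0.009. With libraries centred on their medians 4 rose and 7 fell, with a median of -0.026. The falls with the smallest p were in Slc1a4, which carries serine and alanine, at 26.6 FPKM with DEP against 38.9 FPKM with DMSO (-0.53 ± 0.02, limma adjusted p = 1.33e-05), in the cystine importer Slc7a11 (-0.53 ± 0.03, limma adjusted p = 4.06e-05), whose protein also pairs with the Slc3a2 heavy chain, and in the glutamine carrier Slc1a5 (-0.30 ± 0.03, limma adjusted p = 0.000276). Slc38a2, a carrier of small neutral amino acids, rose to 47.5 FPKM with DEP, against 38.5 FPKM with DMSO (0.30 ± 0.02, limma adjusted p = 9.57e-05). Slc7a6, another partner of the heavy chain, rose too (0.20 ± 0.02, limma adjusted p = 0.00102). In iWAT 4 of 25 rose and none fell, and Slc1a4 was among the 4, at 38.5 FPKM with DEP against 33.7 FPKM with DMSO (0.19 ± 0.03, limma adjusted p = 0.00745). Slc7a11 did not pass in iWAT (0.06 ± 0.03, limma adjusted p = 0.245). The AML12 change minus the iWAT change was -0.72 ± 0.03 for Slc1a4 (limma adjusted p = 1.85e-07) and -0.59 ± 0.04 for Slc7a11 (limma adjusted p = 2.27e-06), in the same direction as for Slc3a2.

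**Figure D5:**
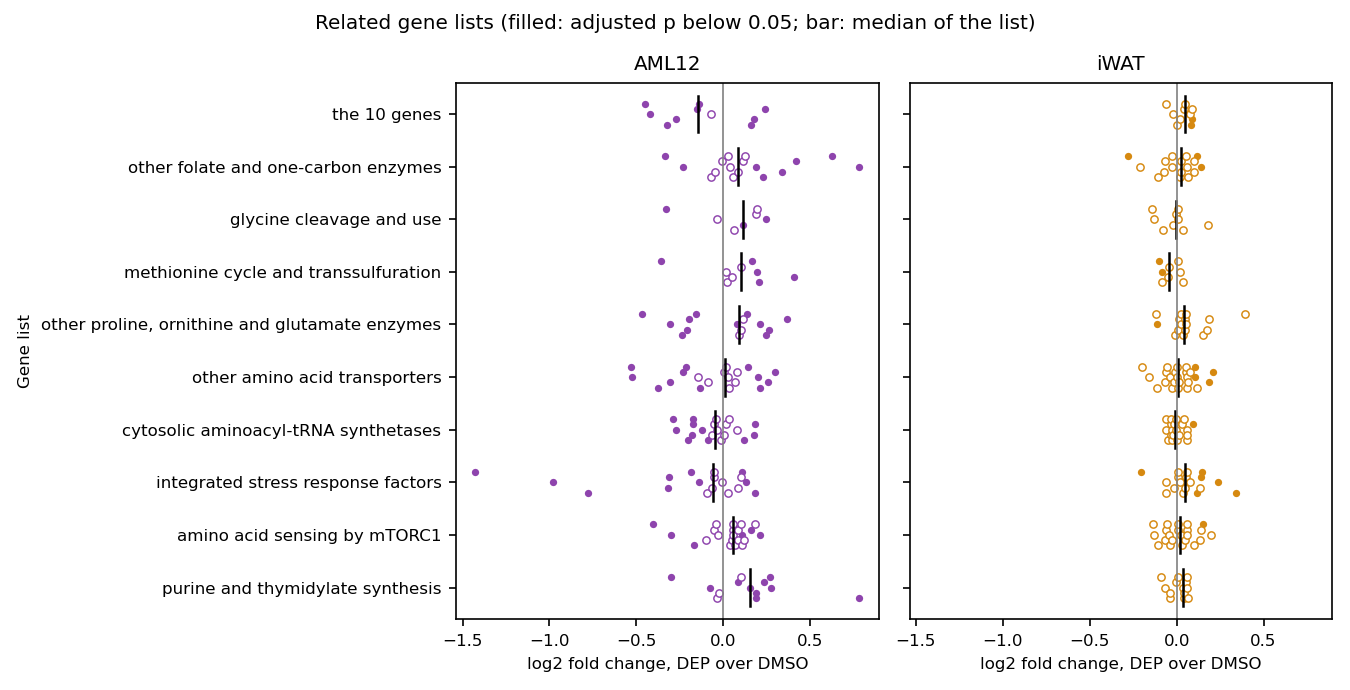
Log2 fold change of DEP over DMSO for each tested gene of the 10 and of related lists, in AML12 (left) and iWAT (right), filled where the adjusted p was below 0.05, with the list median as a bar. In AML12 the integrated stress response factors ran down to -1.43 for Ddit3, and in iWAT 5 of 18 were higher and 1 was lower.

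The transcript of Atf4 itself did not pass in either line, at 156 ± 3.66 FPKM with DEP and 162 ± 2.54 FPKM with DMSO in AML12 (-0.05 ± 0.02, limma adjusted p = 0.128) and 336 ± 4.82 FPKM with DEP and 351 ± 5.46 FPKM with DMSO in iWAT (-0.06 ± 0.02, limma adjusted p = 0.105). Other factors of the integrated stress response moved in both lines. In AML12 7 of 18 fell and 3 rose, or 9 fell and 1 rose with libraries centred on their medians, and in iWAT 5 rose and 1 fell. Ddit3, which encodes the stress factor CHOP, had a log2 change of -1.43 ± 0.04 in AML12 (limma adjusted p = 6.65e-06) and 0.13 ± 0.03 in iWAT (limma adjusted p = 0.0595). Trib3, a pseudokinase that restrains ATF4 activity, averaged 28.4 FPKM with DEP and 49.3 FPKM with DMSO in AML12, and 118 FPKM with DEP and 107 FPKM with DMSO in iWAT (0.14 ± 0.03, limma adjusted p = 0.0269). Ppp1r15a, the phosphatase subunit that reverses the response, averaged 4.996 FPKM with DEP and 10.8 FPKM with DMSO in AML12, and 82.9 FPKM with DEP and 70.2 FPKM with DMSO in iWAT (0.24 ± 0.02, limma adjusted p = 0.000556). The change in AML12 minus that in iWAT was -0.91 ± 0.04 for Trib3 (limma adjusted p = 8.32e-08) and -1.21 ± 0.06 for Ppp1r15a (limma adjusted p = 4.63e-07). In the AML12 DEP libraries, where Ddit3, Trib3 and Ppp1r15a stood lower, Phgdh, Psat1 and Shmt2 stood higher, and Mthfd2, Aldh1l2, Aldh18a1, Pycr1, Slc7a5 and Slc3a2 stood lower.

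The cytosolic aminoacyl-tRNA synthetases, which load tRNA with amino acids, had 8 of 20 lower and 3 higher in AML12, with a median of -0.049, or 11 lower and 3 higher with libraries centred on their medians. Wars1, for tryptophan, averaged 48.9 FPKM with DEP and 59.3 FPKM with DMSO (-0.27 ± 0.02, limma adjusted p = 0.000174), and Sars1, which loads serine, averaged 65.2 and 80.0 FPKM (-0.29 ± 0.03, limma adjusted p = 0.000343). Hars1, for histidine, was higher (0.18 ± 0.02, limma adjusted p = 0.00101). In iWAT 1 of 20 passed, Aars1 for alanine, at 119 FPKM with DEP and 112 FPKM with DMSO (0.10 ± 0.02, limma adjusted p = 0.0198), a gene that fell in AML12 (-0.18 ± 0.02, limma adjusted p = 0.00186). Myc, whose protein is known to drive several of the 10 genes, did not pass in AML12 at 81.9 FPKM with DEP and 79.2 FPKM with DMSO (limma adjusted p = 0.406). In iWAT Myc was higher, at 63.6 FPKM with DEP and 57.6 FPKM with DMSO (0.14 ± 0.03, limma adjusted p = 0.0382).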

How the data were processed

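The authors deposited FPKM for each gene, in a table for each line, from stranded total RNA libraries (RNA integrity number of at least 7, per the labels). Trimmomatic, HISAT2 and the GRCm39 build are named in the submitters' processing notes. Versions, the counting tool, its annotation and its treatment of strand and of reads with several matches are not given in the sources used here. Symbols and exon lengths came from GENCODE M21 (GRCm38), and 26378 AML12 and 27621 iWAT identifiers had a symbol. These lengths gave whole reads, within 0.001, for 89.4% of genes in each line, and a search over lengths raised this to 97.3% of AML12 and 97.2% of iWAT genes, which held 99.96% and 99.93% of the reads. One read in a 1-kb gene was worth 0.0183 to 0.0233 FPKM.

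Genes that reached 0.5 FPKM in 3 or more libraries were tested with limma on log2(FPKM + 1), with an empirical Bayes trend on the mean level. P-values were two-sided, took the Benjamini-Hochberg adjustment over the whole table, and a gene was called below 0.05. The difference between the lines was the interaction in a fit of all 12 libraries. The procedure was also run on simulated data with known changes. Every simulated gene had the same set spread beyond counting, so that run does not test the fit on the real spread of these libraries. Alternatives were pseudocounts of 0.1 and 0.5 FPKM, no filter or one at 1 FPKM, median centring, a joint fit, a constant prior, a replicate block, leaving out each library, and limma's voom on the reads recovered from FPKM.

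The members and lists were chosen with earlier results of these data known. Beyond the members, the text names up to 3 called genes a direction and line from each list by smallest p, a set list of ATF4-related genes, counterparts, Myc and Mki67, marker genes, and the 5 genes with the highest Pearson correlation to the members' mean profile at a mean of at least 5 FPKM in each line. Some genes that these rules name are not reported here. Nothing in the labels says that the 3 libraries of a group were separate cultures, so p-values measure the spread between these libraries, which may be technical. Software was limma 3.58.1 in R 4.3.3, and numpy 2.4.6, pandas 2.3.3 and matplotlib 3.10.9 in Python 3.11.15.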

Additional observations from a re-analysis of the deposited data

Results flagged for a closer look

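For 8 of the 10 genes the change with DEP in AML12 differed from that in iWAT by the limma interaction test, adjusted over all 14651 genes tested, in which 29.2% of genes passed. The AML12 log2 fold change was above the iWAT one by 0.19 for Phgdh and by 0.14 for Psat1, both of which rose in AML12. It was below the iWAT one for the other 6, with differences of -0.19 for Mthfd2 (limma adjusted p = 0.00322), -0.45 for Aldh1l2, -0.30 for Aldh18a1 (limma adjusted p = 4.96e-05), -0.35 for Pycr1 (limma adjusted p = 0.00438), -0.23 for Slc7a5 (limma adjusted p = 0.000313) and -0.51 for Slc3a2. Slc7a5 and Slc3a2 were the genes of the 10 that passed in opposite directions in the lines, but their iWAT calls were lost with no filter, a constant prior, the replicate block or any 1 iWAT library left out.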

How the results depend on the processing

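The calls of the 10 genes in AML12 kept their direction and side of the threshold in all 150 combinations of gene and alternative, with adjusted p of the 9 called genes up to 0.0399 (Mthfd2, on leaving out 1 library). For the difference between the lines 199 of 200 kept their side of the threshold, the exception being Shmt2 under the replicate block. In iWAT 129 of 150 kept their side of the threshold. Direction was not always kept by genes that were not called. The Psph difference between the lines ran from -0.0429 to 0.0189, and the Aldh1l2 change in iWAT from -0.0107 to 0.0150. Over all iWAT genes 543 were higher and 609 lower, against 293 and 371 with no filter, 277 and 396 with a constant prior, 190 and 313 with the replicate block, and 1055 and 936 with voom. On leaving out 1 iWAT library 192 to 268 were higher and 319 to 421 lower. The 2 iWAT calls became 0 with no filter, a constant prior or the replicate block, 1 (Slc7a5) with median centring, and 0 to 0 on leaving out 1 library; the cause was not tested. DEP and DMSO libraries of 1 number showed little shared deviation from their group means. Correlations of these deviations were -0.056 to -0.005 in AML12 and -0.025 to 0.029 in iWAT. With 3 libraries a group these values cannot show whether the libraries were made in pairs. The block changed no other call of the 10 genes. With libraries centred on their medians 8 AML12 calls in the related lists were lost and 0 in iWAT, and none changed sign. Depth limits Aldh1l2 in AML12 most, at 587 to 915 reads per library.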

Other observations

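Purine and thymidylate synthesis, which uses the single carbons and the glycine made by the mitochondrial folate enzymes, had 8 of 13 genes higher and 2 lower in AML12, with a median log2 change of 0.154, and none called in iWAT, with a median of 0.036. Over all genes tested 39.2% were called in AML12, with a median of 0.032, and 8.54% in iWAT, with a median of 0.007. Gart, a trifunctional purine enzyme, averaged 24.9 ± 0.678 FPKM with DEP and 20.9 ± 0.306 FPKM with DMSO in AML12 (0.24 ± 0.03, limma adjusted p = 0.000816). Atic, which completes the purine ring, averaged 25.9 ± 0.162 FPKM with DEP and 22.6 ± 0.408 FPKM with DMSO (0.19 ± 0.02, limma adjusted p = 0.000908). Adss2, on the branch to adenylate, fell to 76.7 FPKM with DEP, against 94.7 FPKM with DMSO (-0.30 ± 0.02, limma adjusted p = 8.39e-05), and Impdh2, on the branch to guanylate, was lower as well (-0.08 ± 0.02, limma adjusted p = 0.0151).

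Glycine metabolism had 2 of 7 genes higher and 1 lower in AML12 and 0 of 9 called in iWAT. Gldc, the decarboxylase of the glycine cleavage system, averaged 44.8 FPKM with DEP and 41.4 FPKM with DMSO in AML12 (0.11 ± 0.02, limma adjusted p = 0.0106), and in iWAT it stood at 0.540 and 0.628 FPKM. Srr, which makes D-serine from L-serine, fell in AML12 to 3.69 FPKM with DEP, against 4.88 FPKM with DMSO (-0.33 ± 0.04, limma adjusted p = 0.00105).

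Genes through which mTORC1, a kinase complex that drives growth, senses amino acids had 3 of 22 higher and 3 lower in AML12, with a median of 0.057, and 1 of 22 higher in iWAT, with a median of 0.018. The shares over all AML12 genes tested were 23.9% higher and 15.3% lower, and in iWAT 4.03% and 4.52%. Castor1, an arginine sensor, averaged 0.795 FPKM with DEP and 1.40 FPKM with DMSO in AML12 (-0.41 ± 0.12, limma adjusted p = 0.0349). Rragc, a Rag GTPase, was the 1 called in iWAT, at 68.8 FPKM with DEP and 62.0 FPKM with DMSO (0.15 ± 0.02, limma adjusted p = 0.00651). Mitochondrial aminoacyl-tRNA synthetases had 3 of 17 higher and none lower in AML12, with a median of -0.015, and none called in iWAT, with a median of -0.019. With libraries centred on their medians the AML12 counts were 7 higher and 2 lower for purine and thymidylate synthesis, 2 and 2 for glycine metabolism, 1 and 3 for mTORC1 sensing and 2 and 0 for the mitochondrial synthetases.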
